A study of Mus musculus with 8 samples.

Results

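The annexins are a family of genes for proteins that bind membranes in the presence of calcium. The analysis covers the 10 annexin genes Anxa1 to Anxa9 and Anxa11, matched by symbol among 23284 genes in mouse preSCs, neuroendocrine lung cells grown as a model of an early tumour stage. The files held 12 annexin genes in all, and Anxa10 and Anxa13 are given apart from the 10. The family was chosen by its read counts in knockout against control libraries, because Anxa1 and Anxa5 differed in opposite directions there. The differences of the 10 genes between the groups are therefore a description. Where the text says that one of them was past the threshold of the fit over all genes, this too only describes it and is no independent test.

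Gene expression was measured by RNA sequencing in 4 Max knockout libraries and 4 control libraries. All 8 libraries came from polyclonal populations of preSCs derived from mice with the genotype Chga-GFP;Rblox/lox;p53lox/lox;p130lox on a mixed 129/SvJ; C57BL/6 background. The knockout populations were transduced with a guide RNA against Max and the control populations with a control guide. Both were selected with puromycin and expanded, and no other treatment was given. The labels do not say whether the floxed alleles had been recombined, what share of Max alleles was edited, or whether replicates were grown separately. The p-values given for other genes may thus rest on technical spread alone.

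An annexin has a conserved core that binds acidic phospholipids, chiefly phosphatidylserine, through calcium, and a variable N-terminal tail that binds partner proteins. Several tails bind small EF-hand calcium proteins of the S100 family, and annexins act in membrane repair, vesicle traffic, plasminogen activation and the control of phospholipase A2. MAX is the obligate partner of the MYC proteins and of several repressors, and its dimers bind the E-box CACGTG.

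Reads counted in genes numbered 13711278 to 19804949 per library, and levels are given in CPM, counts scaled to the size of the library. A gene with 0 reads may still have been present below 0.151 to 0.219 CPM (3 counts, counting error only). Max itself lay between 42.3 and 68.0 CPM in the knockout and between 61.9 and 75.2 CPM in the controls, with overlap, and a guide need not lower the transcript. Among the neuroendocrine markers, Insm1 was at 701 ± 83.004 and 700.2 ± 65.7 CPM and Chga at 442 ± 34.0 and 457 ± 8.75 CPM in knockout and control (SD, n = 4 each), so transcripts that define the labelled cell type were present. Of the 8 markers, Uchl1 rose (0.41, edgeR adjusted p = 0.0496), Chgb fell (-0.37, adjusted p = 0.00183) and 6 did not pass. Uchl1 in control 3, at 748 CPM, lay inside the knockout range of 687 to 833 CPM. Calca was at 1980 and 1783 CPM in controls 1 and 2, at 399 and 467 CPM in controls 3 and 4 and at 524 to 589 CPM in the knockout. The controls were not alike. Across genes, log2 CPM correlated at Pearson's r of 0.973 to 0.995 between pairs of controls and 0.993 to 0.995 between pairs of knockout libraries. Controls 3 and 4 had 23.3% and 23.4% of their uniquely placed reads outside annotated exons, controls 1 and 2 had 18.5% and 18.6%, and the knockout libraries had 20.5% to 21.55%. Values against each pair of controls are given for part of the results, and results shown without them may also have moved.

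The start regions of the 2 genes with opposite differences are shown first, with that of Anxa2, the other annexin that was lower in the knockout. The sequences are the 250 bases before the RefSeq start (build GRCm38.p6, each 5′ to 3′ on the gene's strand). They lie at chr19:20390672-20390921 on the minus strand for Anxa1, at chr3:36475888-36476137 on the minus strand for Anxa5 and at chr9:69453433-69453682 on the plus strand for Anxa2. Capitals mark the letters TATAAA or CACGTG.
Anxa1: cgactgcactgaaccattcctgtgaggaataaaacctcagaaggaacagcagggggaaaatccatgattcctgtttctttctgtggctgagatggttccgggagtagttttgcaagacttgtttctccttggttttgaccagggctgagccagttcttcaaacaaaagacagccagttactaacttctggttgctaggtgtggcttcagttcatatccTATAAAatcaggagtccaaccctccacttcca
Anxa5: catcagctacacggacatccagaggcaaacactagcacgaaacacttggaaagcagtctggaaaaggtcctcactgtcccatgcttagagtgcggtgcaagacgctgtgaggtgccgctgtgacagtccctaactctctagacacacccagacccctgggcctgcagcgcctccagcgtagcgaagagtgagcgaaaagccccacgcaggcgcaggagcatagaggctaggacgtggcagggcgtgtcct
Anxa2: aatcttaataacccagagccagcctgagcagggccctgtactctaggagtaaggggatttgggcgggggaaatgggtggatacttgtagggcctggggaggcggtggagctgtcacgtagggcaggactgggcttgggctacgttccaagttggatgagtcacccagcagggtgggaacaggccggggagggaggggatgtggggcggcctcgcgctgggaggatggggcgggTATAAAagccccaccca
Of these bases, 46% were G or C in Anxa1, 58.8% in Anxa5 and 62.4% in Anxa2. The dinucleotide CG occurred 2 times in Anxa1, 13 times in Anxa5 and 9 times in Anxa2. The letters TATAAA, searched on both strands after the sequences had been seen, began 32 bases before the start of Anxa1 and 17 bases before that of Anxa2, and were not in the Anxa5 window.

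The table of start regions (250 bases before to 50 after each start) held 11 windows for 8 of the 10 annexins, all but Anxa3 and Anxa6. CACGTG, which reads the same on both strands, was in 1 of the 11 windows and in 7.15% of 32851 windows of all genes. The related letters CACGCG, searched on both strands, were in 9.27% of all windows and in 0 of the 11. TATAAA was in 13.6% of all windows and in 2 of the 11. The 1 annexin window with CACGTG was that of Anxa7, with the site beginning 113 bases before one of its RefSeq starts, at chr14:20480037-20480066 on the minus strand.
Anxa7: ctgagatatagaCACGTGttaaaactagct
A match describes letters only, and the absence of a match says nothing of binding outside the window.

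Of the 10 annexins, 8 passed the filter on low counts, and Anxa3 and Anxa8 did not. Of these 8, 3 lay higher and 2 lower in the knockout past an adjusted p of 0.05, in a fit in which 23.1% of 13358 tested genes were past it. A difference of at least 2-fold as well was present in 3 of the 8, Anxa1, Anxa2 and Anxa5, and in 4.90% of all tested genes. Since the comparison served to choose the family, nothing is read from that count. Anxa1, Anxa4 and Anxa7 were the higher ones, Anxa2 and Anxa5 the lower ones, and Anxa6, Anxa9 and Anxa11 did not pass. The same 5 genes had knockout values that did not overlap the control values, as did 26.4% of all tested genes. In bulk RNA, fewer cells with a transcript and less of it per cell cannot be told apart.

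**Figure D1:**
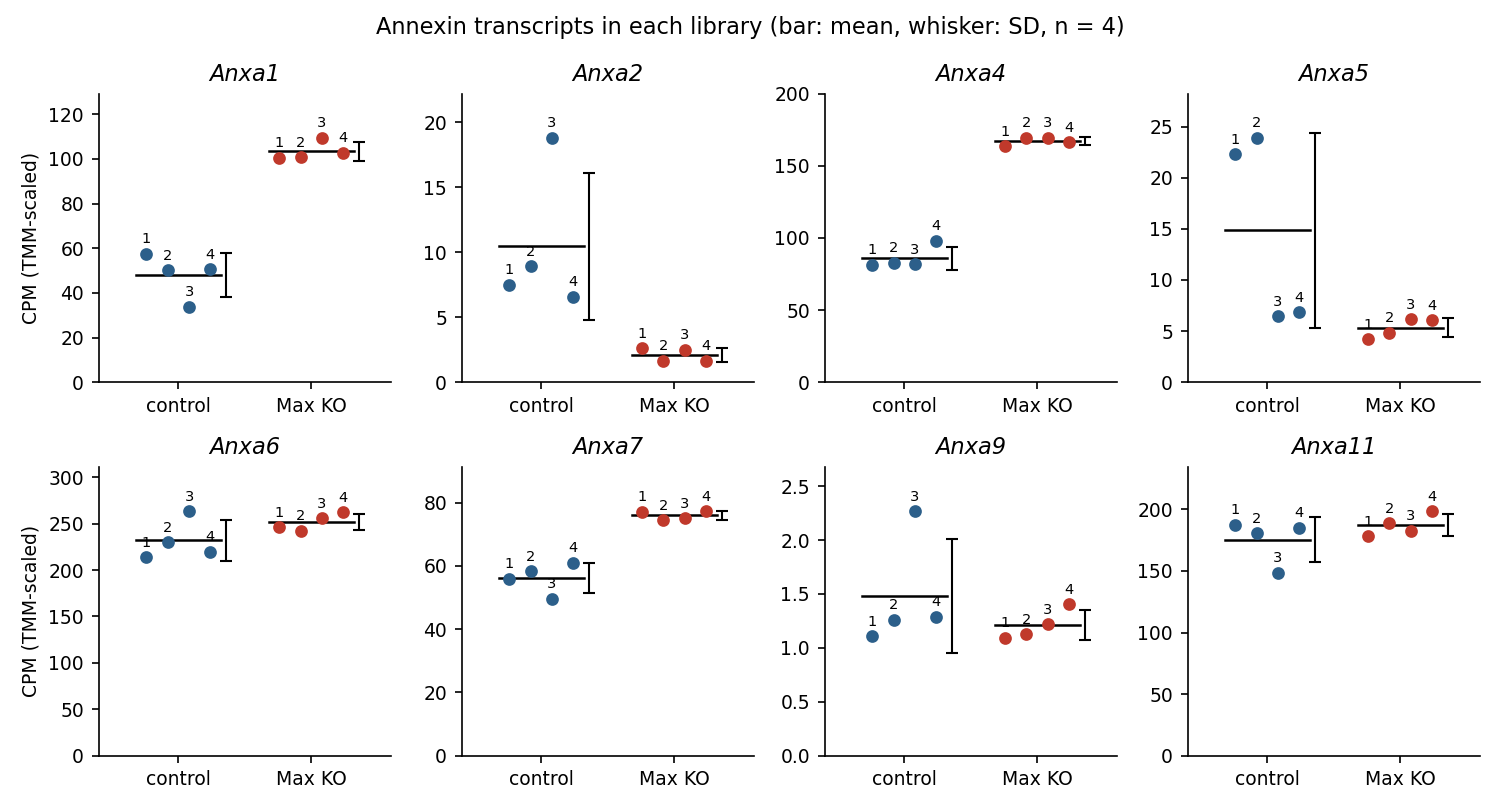
CPM (vertical axes, linear from 0) of the 8 annexins that passed the count filter, with 1 numbered point per library, a bar at the mean and a whisker of 1 SD (n = 4 per group). The knockout points of Anxa1, Anxa4 and Anxa7 lie above all controls and those of Anxa2 below them, while controls 3 and 4 of Anxa5, at 6.44 and 6.84 CPM, sit just above the knockout libraries.

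Anxa1 encodes a glucocorticoid-induced protein whose N-terminal peptide acts on formyl peptide receptors. Knockout libraries 1 to 4 held 101, 101, 110 and 103 CPM of Anxa1, and controls 1 to 4 held 57.4, 50.2, 33.8 and 50.5 CPM. All 4 knockout libraries were above all 4 controls, and control 3 was the lowest. The means were 103 ± 4.21 and 48.0 ± 10.02 CPM (SD, n = 4 each), a log2 difference of 1.10 (SE 0.13). Against controls 1 and 2 alone it was 0.94, and against controls 3 and 4 alone 1.28.

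Anxa5 encodes the phosphatidylserine-binding protein used to stain dying cells. Knockout libraries 1 to 4 held 4.23, 4.84, 6.17 and 6.06 CPM of Anxa5, and controls 1 to 4 held 22.3, 23.9, 6.44 and 6.84 CPM. Controls 1 and 2 stood well above all other libraries, and controls 3 and 4 lay next to the knockout. The means of 5.32 ± 0.946 and 14.9 ± 9.54 CPM (SD, n = 4 each) gave a log2 difference of -1.50 (SE 0.42). That difference was -2.13 (SE 0.13) against controls 1 and 2 and -0.33 (SE 0.19) against controls 3 and 4, where it was not past the threshold. When single libraries were left out it stayed past the threshold in 3 of 8 cases, and not without knockout 1, 2 or 3 or control 1 or 2, with values of -1.40, -1.45, -1.58, -1.24 and -1.18. The opposite direction of Anxa1 and Anxa5 was thus present in sign against either pair of controls, but the size of the Anxa5 difference came from controls 1 and 2.

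The ratio of the 2 genes within a library does not depend on scaling between libraries. There were 23.8, 20.8, 17.8 and 16.95 Anxa1 reads per Anxa5 read in knockout libraries 1 to 4 and 2.58, 2.10, 5.25 and 7.38 in controls 1 to 4. The ratio in every knockout library exceeded that in every control, and among the controls it was lowest in 1 and 2. This separation follows from the values above, since every knockout library held more Anxa1 and less Anxa5 than every control. It is no further support for the opposite directions, by which the family was chosen.

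Anxa2 encodes the annexin that joins S100A10 in a tetramer at the cell surface and binds plasminogen and its activator. Knockout libraries 1 to 4 held 2.61, 1.66, 2.51 and 1.66 CPM of Anxa2, and controls 1 to 4 held 7.50, 8.90, 18.8 and 6.56 CPM. The groups did not overlap, and control 3 was the highest. The means of 2.11 ± 0.521 and 10.4 ± 5.66 CPM (SD, n = 4 each) differed by -2.28 on the log2 scale (SE 0.34), or 4.87-fold, the largest difference among the 8 genes in the fit with all controls. Without control 3 the difference was -1.85 (SE 0.20), and it was -1.94 and -2.56 against controls 1 and 2 and against controls 3 and 4. Anxa2 and Anxa5, the 2 annexins that were lower, were not high in the same controls, since control 3 held the most Anxa2 and the least Anxa5.

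Anxa4, an annexin of epithelial and secretory membranes, had 164, 169, 170 and 166 CPM in knockout libraries 1 to 4, against 81.5, 82.9, 81.5 and 97.9 CPM in controls 1 to 4. The knockout libraries were closely alike and all well above the controls. The means of 167 ± 2.81 and 86.0 ± 7.99 CPM (SD, n = 4 each) differed by 0.96 on the log2 scale (SE 0.08), and by 1.02 and 0.89 against the first and second pair of controls.

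Anxa7, also called synexin, promotes fusion of secretory granules and binds the EF-hand protein sorcin. It was at 77.1, 74.5, 75.1 and 77.3 CPM in the knockout and at 55.9, 58.2, 49.6 and 61.0 CPM in the controls, without overlap. The log2 difference was 0.44 (SE 0.08), smaller than those of Anxa1 and Anxa4.

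Anxa6, the annexin with a duplicated core, lay between 243 and 262 CPM in the knockout and between 214 and 264 CPM in the controls, so the ranges overlapped. Its log2 difference was 0.12 (SE 0.08), and it passed the threshold in 1 of 18 alternative fits, that with only controls 1 and 2 (0.18). Anxa11, whose long tail binds the EF-hand protein ALG-2 and which links RNA granules to lysosomes, lay between 178 and 199 CPM in the knockout and between 148 and 188 CPM in the controls (0.09, SE 0.08). Control 3 was the lowest library for Anxa11 and the highest for Anxa6. Anxa9, whose core lacks the usual calcium-binding residues, was low at 1.10 to 1.40 CPM in the knockout and 1.11 to 2.27 CPM in the controls. Its log2 difference of -0.27 (SE 0.27) was 0.03 against controls 1 and 2 and -0.54 against controls 3 and 4. The reads of Anxa9 are uncertain, because it overlaps Mindy1 on the opposite strand in the GENCODE M21 annotation and the counting is not said to have used strand. Genes on the opposite strand also overlap Anxa1, Anxa2, Anxa4 and Anxa11 (noncoding) and Anxa8 (protein coding), with the same limit, and a microRNA gene lies within Anxa2 and Anxa5 on the same strand.

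**Figure D2:**
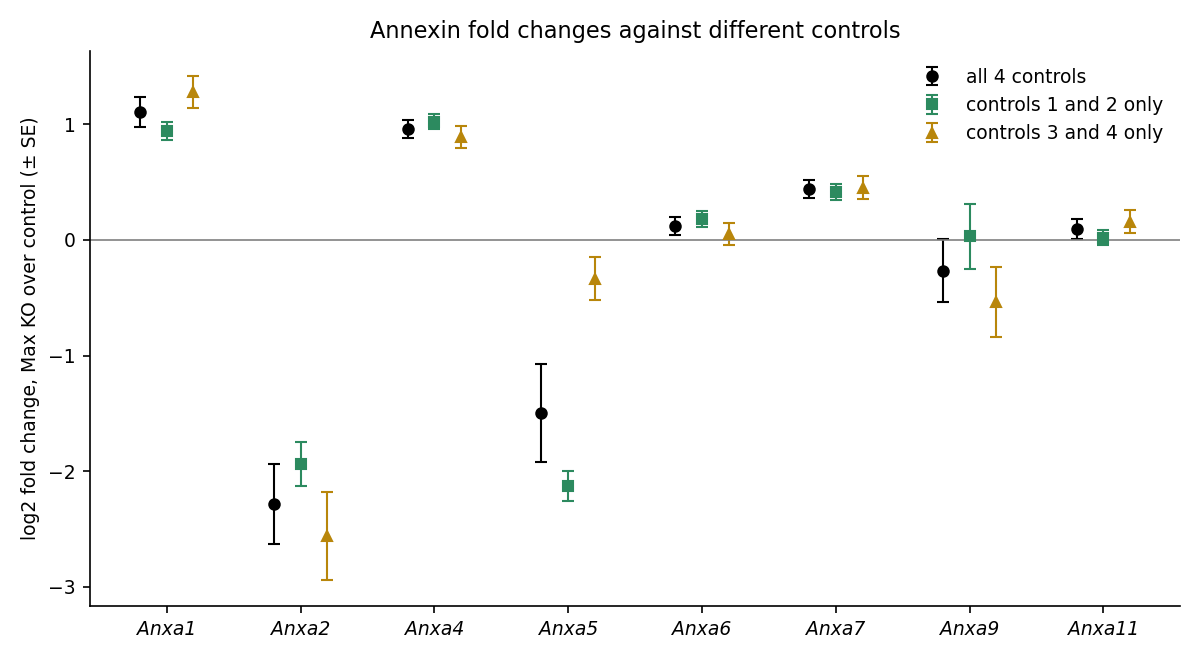
Log2 fold change of 8 annexins in the Max knockout over control (vertical axis, ± SE) in the fit with all 4 controls (circles), with controls 1 and 2 only (squares) and with controls 3 and 4 only (triangles). Anxa5 moves from -2.13 to -0.33 between the pairs of controls, while Anxa1, Anxa2, Anxa4 and Anxa7 keep their sign and are past the threshold in each of the 3 fits.

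The 2 annexins under the count filter were close to absent. Anxa3 had 0, 0, 2 and 0 reads in knockout libraries 1 to 4 and 4, 6, 0 and 1 in controls 1 to 4. Anxa8 had 2 reads in knockout 1 and 0 in the other 7 libraries. Outside the 10, Anxa10 had 0 reads in every library and Anxa13 had 1 read in each of 3 libraries. These genes had too few reads for any comparison at this depth.

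Divided by exon length (GENCODE M21, per kilobase of exon), the annexins spanned a wide range of levels. In the controls the order from the highest was Anxa6 at 93.2 ± 8.92, Anxa11 at 64.4 ± 6.70, Anxa4 at 40.8 ± 3.79, Anxa1 at 25.4 ± 5.29, Anxa7 at 18.5 ± 1.61, Anxa5 at 8.60 ± 5.51, Anxa2 at 7.22 ± 3.91 and Anxa9 at 0.751 ± 0.269 CPM per kilobase (SD, n = 4). The neighbours Anxa1 and Anxa7 overlapped between libraries, as did Anxa5 and Anxa2, and the other neighbours did not. In the knockout the order was Anxa6 at 101 ± 3.62, Anxa4 at 79.4 ± 1.33, Anxa11 at 68.7 ± 3.25, Anxa1 at 54.6 ± 2.22, Anxa7 at 25.1 ± 0.462, Anxa5 at 3.08 ± 0.546, Anxa2 at 1.46 ± 0.360 and Anxa9 at 0.614 ± 0.0700 CPM per kilobase (SD, n = 4), with no overlap between these neighbours. Anxa4 and Anxa11 thus stood in the opposite order in the 2 groups, and the rest kept their place. The order of these 8 was the same with the longest coding transcript as the length.

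**Figure D3:**
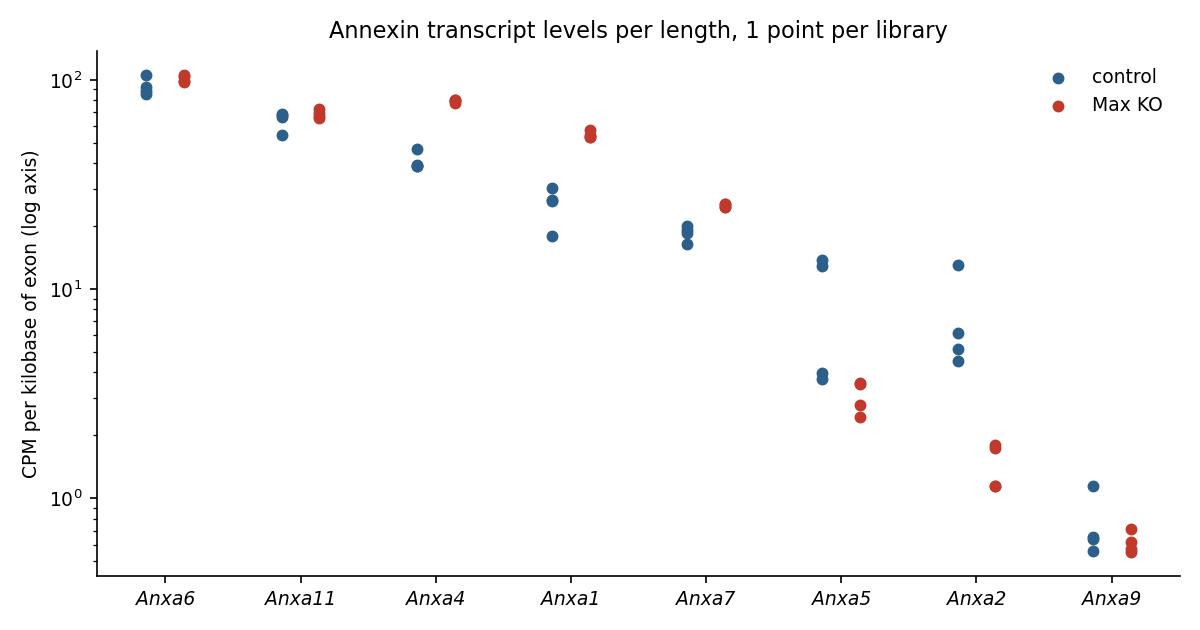
CPM per kilobase of exon (log axis) of 8 annexins in each control and knockout library, 1 point per library, ordered by the control mean. Anxa6, Anxa11, Anxa4, Anxa1 and Anxa7 lie above 15 and Anxa5, Anxa2 and Anxa9 below them, and the points of Anxa5 in the controls fall into 2 pairs.

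The 10 genes together held 774 to 816 CPM in the knockout libraries and 605 to 637 CPM in the controls. The sums did not overlap. Most of both sums came from Anxa6, Anxa11, Anxa4 and Anxa1, so they say little of Anxa2 and Anxa5. The spread between libraries was wider among controls than in the knockout for each of the 8 genes, with coefficients of variation of 8.67% to 64.1% against 1.68% to 24.7%.

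By the smallest root mean square difference of centred log2 CPM over the 8 libraries, the genes most like Anxa1 among 11091 were Tgm5 (0.134), which encodes a transglutaminase, Ctsc (0.134), a lysosomal peptidase gene, and Cxcr4 (0.135), a chemokine receptor gene. Those most like Anxa5 were Rgs2 (0.197), a regulator of G protein signalling, Ahnak (0.221), a large scaffold protein gene, and Sstr1 (0.239), a somatostatin receptor gene. Rgs2 was at 189, 148, 59.4 and 65.0 CPM in controls 1 to 4 and at 43.5 to 51.6 CPM in the knockout. Sstr1 was at 44.5, 40.8, 7.03 and 9.99 CPM in controls 1 to 4 and at 6.16 to 8.87 CPM in the knockout. Both had the 2 high and 2 low controls of Anxa5. These genes were ranked by the same libraries, and the likeness is a description.

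**Figure D4:**
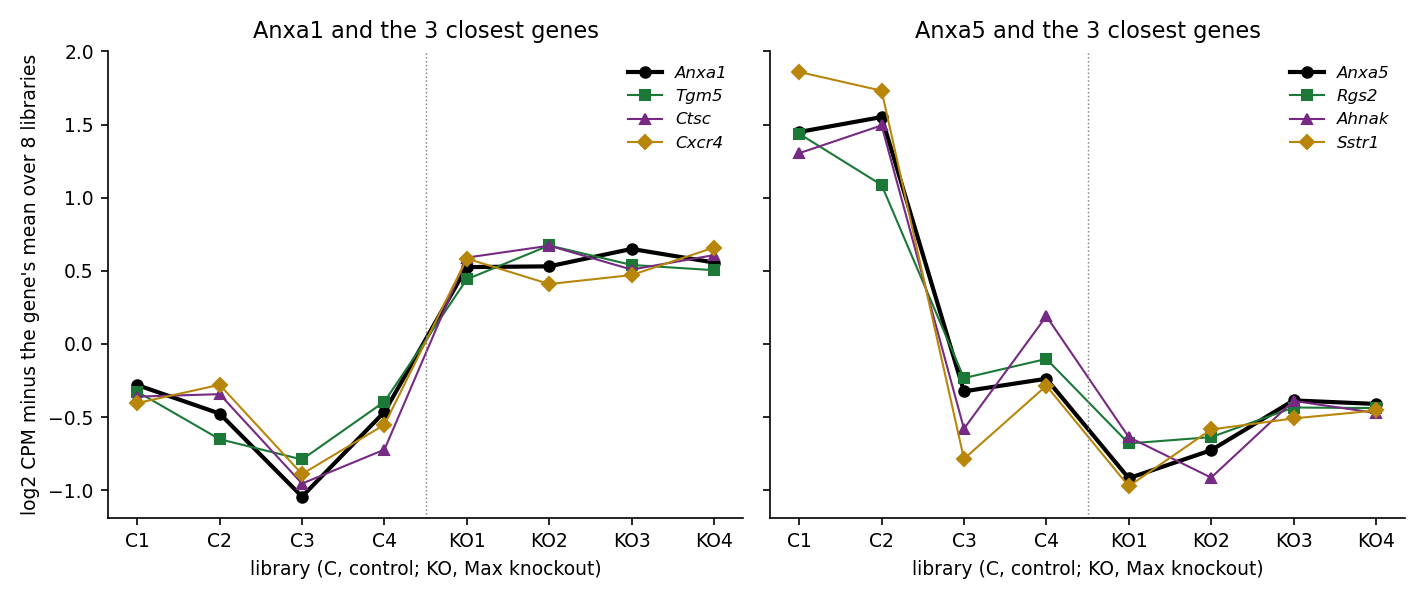
Log2 CPM of Anxa1 (left) and Anxa5 (right) and of the 3 genes with the closest profiles in each library, each gene centred on its mean over the 8 libraries. The Anxa1 profiles step up between controls (C) and knockout (KO), and the Anxa5 profiles step down between controls 2 and 3.

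Partners and processes of the annexins were examined next, with edgeR's quasi-likelihood test over all 13358 tested genes and Benjamini-Hochberg adjustment. The share of calls in that fit was 10.9% in the higher and 12.2% in the lower direction, with a median log2 fold change of -0.0036 (upper-quartile scaling moved the calls from 1457 higher and 1627 lower to 1160 and 1965). Of 8 tested EF-hand partners, 1 rose and 7 did not pass (median -0.17). Sri, which encodes the annexin A7 partner sorcin, rose. It was at 62.3, 61.6, 60.4 and 66.0 CPM in the knockout and at 48.7, 50.2, 38.3 and 44.8 CPM in the controls, without overlap (0.46, SE 0.09, edgeR adjusted p = 0.00366). The difference of Sri was 0.34 against controls 1 and 2 and 0.58 against controls 3 and 4, beside 0.41 and 0.45 for Anxa7. Pdcd6, which encodes the annexin A11 partner ALG-2, was at 55.7 ± 2.38 and 54.2 ± 5.16 CPM in knockout and control (SD, n = 4 each; 0.04, SE 0.08, adjusted p = 0.780).

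The gene of the annexin A2 partner differed in the direction of Anxa2, but by less and without passing. S100a10 was at 12.5, 10.7, 12.7 and 10.02 CPM in the knockout and at 11.2, 16.4, 17.6 and 11.3 CPM in the controls. The groups overlapped, and S100a10 did not pass (log2 difference -0.29, SE 0.16, edgeR adjusted p = 0.233). Control 3 was the highest library for S100a10, as it was for Anxa2. There were 4.80 to 6.48 S100a10 reads per Anxa2 read in the knockout and 0.938 to 1.845 in the controls (reads within a library, not per length), without overlap. This ratio has Anxa2 itself, at 25 to 50 reads per knockout library, as its divisor. Its rise restates the lower level of Anxa2, since S100a10 was not higher on average in the knockout. S100a11, which encodes a partner of annexin A1, was low at 1.67 to 2.85 CPM in the knockout and 2.81 to 3.29 CPM in the controls (-0.42, SE 0.20, adjusted p = 0.167). S100a6 had 1 read in all 4 knockout libraries together and 3, 11, 3 and 4 reads in controls 1 to 4, and was under the count filter. S100a1 (-0.39, edgeR adjusted p = 0.0673) and S100a13 (-0.49, adjusted p = 0.0837) were also lower on average and did not pass. S100a4, S100a16 and S100b, under the filter too, had 5 and 18, 11 and 24, and 8 and 13 reads in knockout and control. All S100 genes of the list were thus lower on average in the knockout, but each either did not pass or was under the count filter. Of all 13358 tested genes, 6768 had a negative log2 fold change, and nothing is read from the shared direction.

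Of 9 genes of plasminogen activation in the files, 5 were tested, and 2 fell, Plat among them (median -0.60). Plat, the gene of tissue plasminogen activator, which binds the annexin A2 tetramer, was at 0.209, 0.398, 0.136 and 0.574 CPM in the knockout and at 2.47, 2.17, 1.10 and 1.01 CPM in the controls. It fell by 2.36 on the log2 scale (SE 0.45, edgeR adjusted p = 0.00299), at 2 to 49 reads per library. The log2 difference was -2.81 against controls 1 and 2 and -1.67 against controls 3 and 4. The urokinase gene Plau was at 1.97 and 2.99 CPM on average (adjusted p = 0.138). Plg itself had at most a few reads, 2 in the knockout and 1 in the controls.

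The receptors of annexin A1 were close to absent. Fpr1 had 1 read in the 8 libraries together, Fpr2 had 0 to 2 reads per library and Fpr3 had 0. Of 7 tested genes of the annexin A1 receptor and glucocorticoid list, 3 fell and 4 did not pass (median -0.17), and 1 fell with only controls 3 and 4. Sgk1, a kinase gene induced by glucocorticoids, was at 1.30, 1.26, 1.90 and 1.72 CPM in the knockout and at 10.4, 7.88, 16.8 and 2.41 CPM in the controls. It fell by 2.59 on the log2 scale (SE 0.49, edgeR adjusted p = 0.00358), and with only controls 3 and 4 the call ended (-2.61, adjusted p = 0.0523, against -2.58 with only controls 1 and 2). Dusp1, a phosphatase gene, fell from 56.5 ± 7.25 to 32.3 ± 3.95 CPM (SD, n = 4 each; -0.81, adjusted p = 0.000472). The Dusp1 difference was -0.96 with only controls 1 and 2 and -0.64 with only controls 3 and 4. Fkbp5 fell by 0.19 on the log2 scale (adjusted p = 0.0420). It did not pass without knockout 1, 2 or 3 or control 1 or 2 (adjusted p up to 0.111), nor with only controls 3 and 4 (0.108), with a replicate block (0.119) or with no count filter (0.104). The receptor gene Nr3c1 was at 133 and 149 CPM on average (-0.17, adjusted p = 0.332), and the target Tsc22d3 at 46.1 and 51.8 CPM (-0.17, adjusted p = 0.227).

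Phosphatidylserine, the lipid that annexin A5 binds, is moved between membrane leaflets by flippases and scramblases. Of 18 tested genes of these protein families, not all of them shown to move phosphatidylserine, 2 rose, 4 fell and 12 did not pass (median -0.01). Tmem30b, a flippase subunit gene, rose from 145 ± 22.3 to 253 ± 24.5 CPM (SD, n = 4 each; 0.80, SE 0.11, edgeR adjusted p = 0.000508), and the flippase gene Atp8b1 rose by 0.49. Plscr4, a scramblase family gene, fell (-0.61, adjusted p = 0.00370), as did the flippase gene Atp10d (-1.05, adjusted p = 0.00529). With only controls 1 and 2 they were at -0.42 and -1.27, and with only controls 3 and 4 at -0.79 and -0.80. Ano6, which encodes the calcium-activated scramblase, was at 82.4 and 82.2 CPM on average (0.00, SE 0.09). The scramblase family genes Xkr8 (-0.38, edgeR adjusted p = 0.0285) and Plscr1 (-0.55, adjusted p = 0.0176) fell, Plscr1 with overlap between the groups. Xkr4 (0.67) and Xkr9 (1.00) were higher on average and did not pass. With only controls 3 and 4, 2 genes of the list were called lower in place of 4.

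Of 14 tested membrane repair genes, 3 rose, 2 fell and 9 did not pass (median 0.04). Capn2, a calpain subunit gene, rose from 182 ± 23.1 to 260 ± 9.96 CPM (SD, n = 4 each; 0.52, SE 0.09, edgeR adjusted p = 0.00225). Chmp4c, a subunit of the ESCRT membrane scission machinery, rose from 1.68 to 4.22 CPM on average (1.32, adjusted p = 0.00251). Pdcd6ip, which encodes the ALG-2 partner ALIX, fell from 101 ± 8.82 to 72.6 ± 4.05 CPM (SD, n = 4 each; -0.47, adjusted p = 0.00157). Ahnak, whose product binds the annexin A2 tetramer, was at 8.15, 9.32, 2.12 and 3.70 CPM in controls 1 to 4 and at 1.66 to 2.44 CPM in the knockout, so control 3 lay inside the knockout range. Its fall (-1.48, adjusted p = 0.0217) was -2.05 against controls 1 and 2 and -0.49 against controls 3 and 4, where it did not pass (adjusted p = 0.242). It also did not pass without knockout 1 or 2 or control 1 or 2 (up to 0.0729), with a replicate block (0.0533) or with limma-voom (0.0600).

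Of 9 tested genes of phospholipase A2 and prostaglandin synthesis, 1 rose and 8 did not pass (median 0.20). Pla2g4e, a cytosolic phospholipase A2 gene, was at 11.1, 8.96, 10.6 and 7.21 CPM in the knockout and at 2.82, 2.41, 5.42 and 7.52 CPM in controls 1 to 4, so control 4 reached into the knockout range. The rise of 1.07 (SE 0.31, edgeR adjusted p = 0.0306) was 1.85 against controls 1 and 2 and 0.53 against controls 3 and 4 (adjusted p = 0.0808). It did not pass without knockout 1, 2 or 3 or control 1 or 2 (up to 0.0931), or with no count filter (0.0673). Pla2g4a, the phospholipase A2 gene best known as a target of annexin A1, had 1 read in the 8 libraries together.

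**Figure D5:**
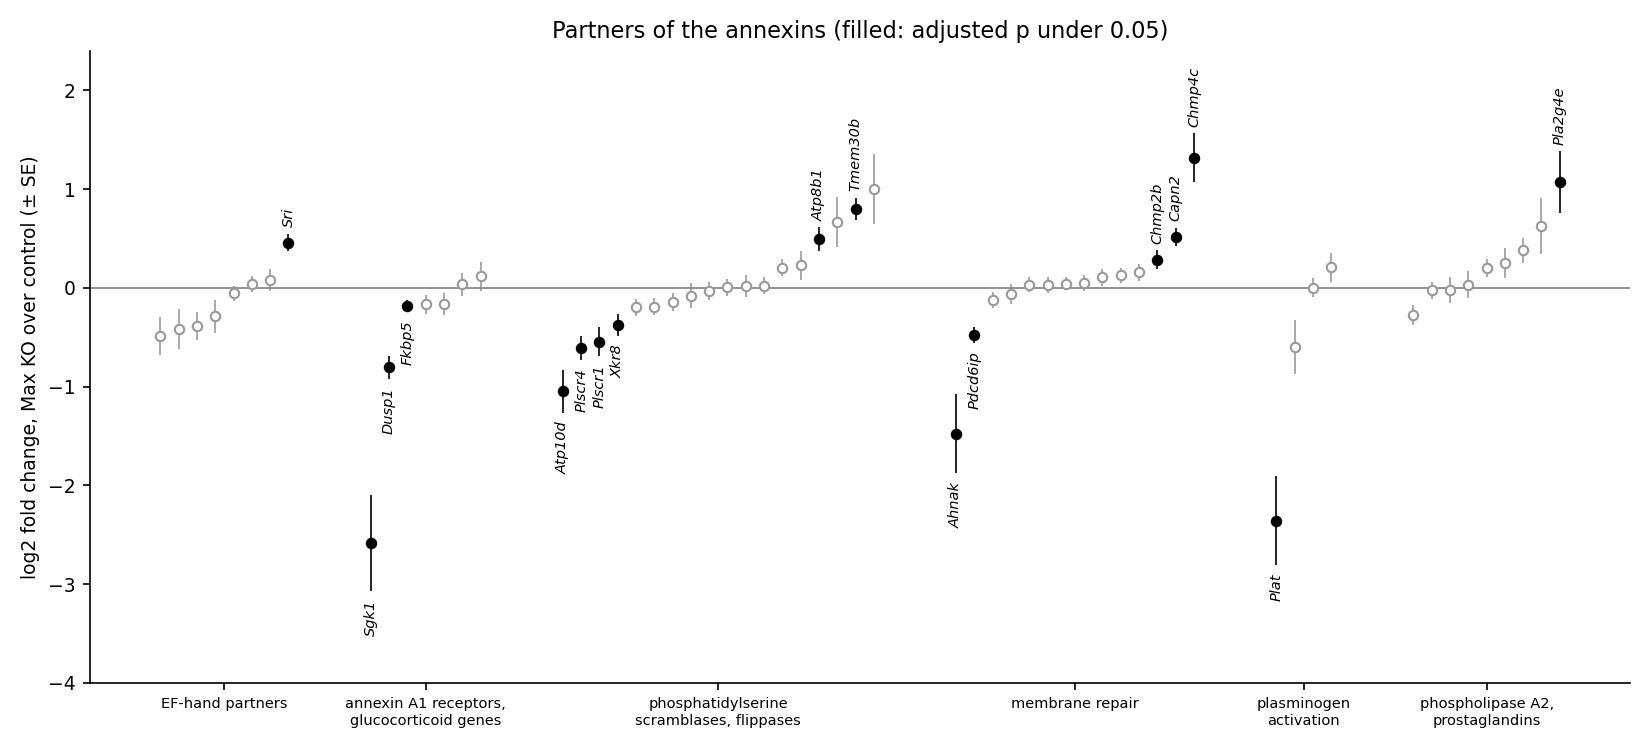
Log2 fold change in the Max knockout over control (vertical axis, ± SE) of tested genes of 6 lists of annexin partners and processes (1 plasminogen gene not drawn), with filled, named points for an adjusted p under 0.05 and open points for the rest. Filled points lie on both sides of 0 among the flippases and scramblases and the membrane repair genes, and Plat and Sgk1 are the lowest points.

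Annexins are widespread in other cell types, so markers of those types were read beside them. The 10 non-neuroendocrine markers summed to 31.9 to 39.8 CPM in the knockout and 26.8 to 43.7 CPM in the controls. Nearly all of this was Hes1, Tgfbr2 and Yap1, which did not pass. The other 7 were under the count filter, with Vim at 0.0339 and 0.240 CPM on average. Pooled over knockout and over control libraries, reads were 3 and 60 for Cyr61, 3 and 15 for Cd44 and 2 and 15 for Vim. They were 3 and 12 for Rest, 2 and 7 for Wwtr1, 1 and 6 for Axl and 2 and 2 for Ctgf. Cyr61 had 34, 23, 3 and 0 reads in controls 1 to 4. The 6 fibroblast markers summed to 49.3 to 65.7 CPM in the knockout and 23.9 to 44.5 CPM in the controls, nearly all of it Dcn. Of the 2 tested fibroblast markers, Dcn rose (0.77, edgeR adjusted p = 0.0124) and Pdgfra fell, from 1.35 to 0.260 CPM on average (-2.37, adjusted p = 0.00423). Col1a1 had 0.0522 to 0.191 CPM in the knockout and 0.220 to 0.403 CPM in the controls, and Lum was at 0. The 5 endothelial markers summed to 596 to 702 and 258 to 422 CPM, nearly all of it Vwf, with Cdh5 at 0.0674 and 0.0840 CPM on average. The 6 haematopoietic markers summed to 2.46 to 4.201 and 2.97 to 6.00 CPM, with Ptprc at 0.0160 and 0.0301 CPM on average. Most of this was Cd68, at 3.22 and 4.24 CPM on average, which did not pass. The 7 markers of other lung epithelium summed to 6.30 to 8.60 and 8.30 to 9.62 CPM, with Krt5 at 0. Foxj1 (3.03 and 3.58 CPM), Ager (2.92 and 3.49 CPM) and Sftpc (1.45 and 1.78 CPM) carried that sum and did not pass. Dcn and Vwf, which carried the fibroblast and endothelial sums, were higher in the knockout, like Anxa1 and Anxa4. Pdgfra, at 16 reads in the knockout and 88 in the controls, was lower without overlap, like Anxa2. Col1a1 did not overlap either, but it was under the count filter, with 8 and 22 reads, near the floor. Of the endothelial markers, Pecam1 (0.618 and 0.805 CPM), Tek (0.296 and 0.513 CPM), Kdr (0.0488 and 0.122 CPM) and Cdh5 were lower on average, with overlap. Col1a2 (0.0958 and 0.0725 CPM) and Col3a1 (0.0166 and 0.0140 CPM) were close to 0 in both groups. The part of these genes and cell types in the annexin differences was not tested.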

How the data were processed

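TRIZOL was used for extraction and an NEB Ultra RNA kit for the libraries, per the labels' protocols. The authors deposited raw counts of reads per gene symbol, 1 file per library, and the submitters' processing notes name bcl2fastq 1.8.4, TopHat2 2.0.12, HTSeq 0.6.1 and the build mm9. For the annotation and strand setting, nothing is stated (not given in the sources used here). Reads in no exon were 16.8% to 20.8% and multiply aligned reads 9.21% to 11.5% of all rows, and both stayed out of library sizes.

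Counts were filtered with filterByExpr, scaled with TMM and compared in R 4.3.3 with edgeR 4.0.16 (quasi-likelihood F test, robust, group as the only term, Benjamini-Hochberg over 13358 genes, threshold 0.05). CPM uses TMM-scaled library sizes, and floors use plain totals. Each SE is the log2 fold change divided by the root of F. Alternatives used limma 3.58.1 and DESeq2 1.42.0, other scalings and filters, a term for the replicate number, and fewer libraries. Lengths come from GENCODE M21 (GRCm38) and start regions from RefSeq (GRCm38.p6), a build other than that of the counts. On simulated counts (13276 genes), 50.7%, 92.4% and 100% of genes changed by 0.5, 1 and 2 on the log2 scale were recovered, with 8 false among 168 calls. Only 67, 67 and 66 genes were changed by these sizes, while the real fit called 3084. These rates thus need not hold for the real fit.

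The members, lists, tests and alternatives were chosen with earlier results of these data known. Named are all annexins, up to 4 genes with the smallest p among those past the threshold in each list, direct partners, and the 3 genes closest in profile to Anxa1 and Anxa5 (average log2 CPM of at least 1, prior count 2, predicted genes left out). Plau, Plg, Fpr3, Nr3c1, Tsc22d3, Ano6, Pla2g4a and the markers named singly were chosen after their values were seen. So were Xkr4, Xkr8, Xkr9, Plscr1, S100a6 and the other S100 genes beside S100a10 and S100a11. Genes of these lists that the rule would name but the text does not are not reported here.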

Additional observations from a re-analysis of the deposited data

Results flagged for a closer look

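Of 52 sets of 4 library values examined (8 annexins and 18 partner genes in each group), 3 held a library far from the other 3 by Dixon's ratio of gap to range (95% level), a test that chance passes in about 5% of sets. Anxa4 in control 4 was at 97.9 CPM, with the next control at 82.9 CPM. Anxa9 in control 3 was at 2.27 CPM, with the next control at 1.29 CPM. Capn2 in control 3 was at 147 CPM, with the next control at 188 CPM. All 3 were control libraries.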

How the results depend on the processing

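Over the 18 alternatives, Anxa1, Anxa2, Anxa4 and Anxa7 were past the threshold in each, Anxa5 in 9, Anxa6 in 1, and Anxa9 and Anxa11 in 0. The annexins past the threshold and lower were 1 in place of 2 with no count filter, with limma-voom, with the replicate block and with only controls 3 and 4, and 1 to 2 in the fits without 1 library. The gene lost was Anxa5, at -0.33 with only controls 3 and 4. Over all genes, 963 to 1846 were called higher and 1139 to 1929 lower in the fits without 1 library, against 1457 and 1627, with the fewest of both without knockout 2. With only controls 1 and 2, 2987 were higher and 3081 lower. Pdcd6, which was not called, changed sign from 0.04 to -0.0068 with upper-quartile scaling and to -0.073 with only controls 1 and 2, and lay between -0.0047 and 0.0796 without 1 library. The cause was not tested.

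Over all alternatives, the EF-hand list had 1 to 2 genes higher and 0 to 2 lower (1 and 0 in the reported fit), the receptor and glucocorticoid list 1 to 5 lower (3), the flippase and scramblase list 2 to 5 higher and 2 to 7 lower (2 and 4), the repair list 2 to 3 higher and 1 to 3 lower (3 and 2), the plasminogen list 0 to 1 higher and 1 to 4 lower (0 and 2), and the phospholipase list 0 to 3 higher and 0 to 1 lower (1 and 0).

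The labels do not say that equal replicate numbers mark shared cultures, so the numbers were not taken as pairs. Deviations of same-numbered libraries correlated at -0.20, -0.012, 0.0020 and -0.11. With controls that differ among themselves, such values cannot show whether cultures were shared. Each knockout library correlated best with a control of another number. With the replicate block, 1208 genes were higher and 1324 lower, and Anxa5 was at -1.29 and not past the threshold. Genes such as Anxa3, Anxa8 and Fpr1, at a few reads in all, are limited by depth.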
